A study of Danio rerio with 8 samples.

Results

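The neurogenic and proneural transcription factors described here are 38 zebrafish genes that are known to act on the way from a neural progenitor to a neuron. The rule takes genes by name and uses no measured value, but the members were chosen with earlier results of these data known. Each name was looked up among the gene names of the deposited count table without regard to case, then without its paralogue letter. All 38 names found a gene, 17 of them by exact name, among 31388 genes in all. The other names were placed by the chromosome of the zebrafish gene, since both copies of a duplicated gene often bear the same human symbol in the table. They were ordered by the stage at which they are best known: 10 progenitor genes, 18 committed genes and 10 differentiating genes, although several act at more than 1 stage.

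All fish carried Tg(her4.1:EGFP), a reporter that drives green fluorescent protein (GFP) from the promoter of her4.1, a target of Notch signalling in radial glia. The fish were adults of 6 months. The brains received an injection of peptide of the cytokine interleukin-4 (IL4), or of phosphate-buffered saline (PBS) as the control. They were taken 24 hours after injection, dissociated and sorted by GFP. The groups are IL4 GFP-positive, PBS GFP-positive, IL4 GFP-negative and PBS GFP-negative cells, with 2 libraries each, 8 in all. Whether the 2 libraries of a group come from separate fish or pools is not stated, so p-values may measure technical spread only. Uninjected brains were not analysed here.

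In the vertebrate brain, radial glia that leave the stem cell state switch on proneural genes of the basic helix-loop-helix (bHLH) class, such as the achaete-scute and neurogenin genes. These bind DNA together with E proteins, raise Notch ligands that hold neighbouring cells back, and start a cascade of later factors (the NeuroD, SoxC, Insm, Ebf, Myt1 and Scratch families) that ends in the factors of particular neuron classes. Her and Hes repressors, downstream of Notch, and Id proteins, which bind E proteins, oppose this cascade. In the adult zebrafish brain the radial glia keep this programme through life.

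Library totals ran from 19242851 to 26582271 counts. The sort went with its label: all 13 radial glia markers that were found (her4.1, gfap, fabp7a and others) were higher in GFP-positive than in GFP-negative cells after PBS, and all 12 neuron markers were lower. Marker genes of neurons, oligodendrocytes and their precursors, microglia and macrophages were not at 0 in the GFP-positive fraction. The neuron markers summed to 681 to 687 CPM, read counts relative to the TMM-scaled library total, in IL4 and 548 to 571 CPM in PBS GFP-positive libraries, against 5298 to 5358 CPM in IL4 and 3924 to 3965 CPM in PBS GFP-negative libraries. The microglia and macrophage markers summed to 265 to 272 CPM in IL4 and 745 to 749.8 CPM in PBS GFP-positive libraries. For the oligodendrocyte and precursor markers the sums were larger, at 1736 to 1753 CPM in IL4 and 1984 to 2062 CPM in PBS GFP-positive libraries.

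Of the 38 members, 37 had enough counts to be tested. The exception, sox11b, a SoxC gene, had 0 counts in all 8 libraries, where 3 counts would be 0.115 to 0.166 CPM. Of its 2699 exon bases, 17 are not shared with another gene model of the table on either strand, and 949 are not shared on the same strand. The strand setting of the counting is not given, so its 0 cannot be read as absence of expression. Its paralogue sox11a has 1551 of 3298 exon bases unshared. For sox4a, the table holds a model of that name with 0 unshared bases and 0 counts, and a model named SOX4 at the same place on chromosome 19, whose counts are used here.

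**Figure D1:**
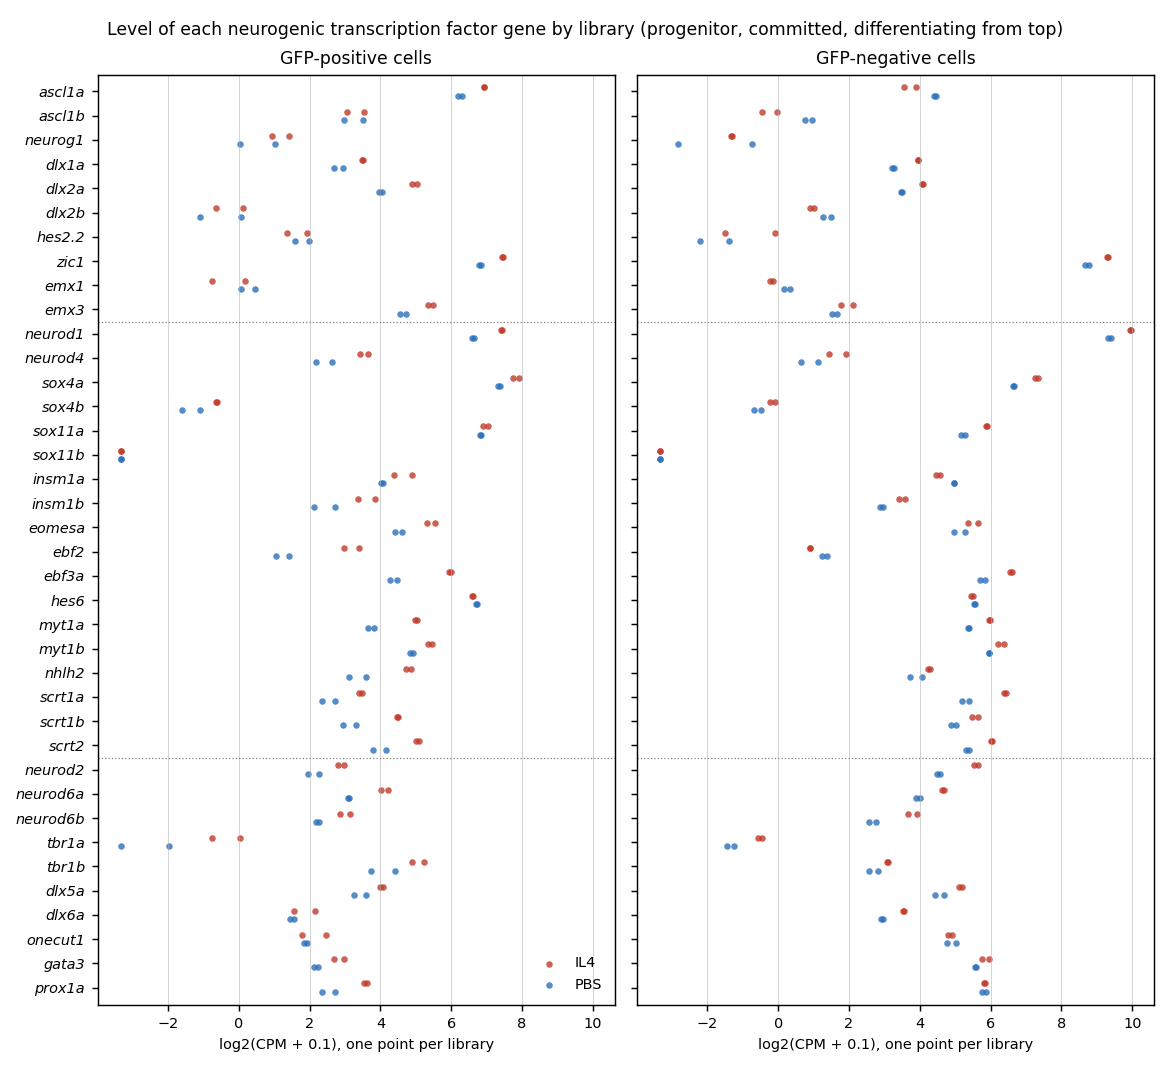
Level of each of the 38 members in each of the 8 libraries, as log2(CPM + 0.1) on the horizontal axis, in GFP-positive cells (left panel) and GFP-negative cells (right panel). Red points are IL4 and blue points PBS libraries, dotted lines divide the progenitor, committed and differentiating genes from top to bottom. Red points lie right of blue ones for most members in both panels. The reverse holds for ascl1a, ascl1b, dlx2b, emx1, insm1a, ebf2 and hes6 in the right panel and for hes6 in the left panel. sox11b has 0 CPM throughout.

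The members were placed in the 2 fractions first, from the PBS libraries. Progenitor genes were more often high in the GFP-positive cells and differentiating genes in the GFP-negative cells. Of the 37 tested members, 11 were higher and 20 lower in GFP-positive than in GFP-negative cells after PBS, in the edgeR quasi-likelihood test with Benjamini-Hochberg adjustment. Over all 20508 genes tested, 32.6% were higher and 39.1% lower in this comparison, which is 71.7% called either way, and higher genes made up 45.5% of the calls, or 28.2% with library totals. The calls of members also changed with library totals. There dlx2a was no longer called higher, and insm1b (-0.97), neurod6b (-0.95) and tbr1a (-2.38) were called lower. By stage, 6 progenitor genes were higher and 3 lower, 4 committed genes were higher and 10 lower, and 1 differentiating gene was higher and 7 lower. The median log2 fold change was 1.17 for progenitor, -0.93 for committed and -1.69 for differentiating genes, against -0.14 over all genes tested. The summed level of the progenitor genes was nonetheless lower in GFP-positive cells, at 252 against 472 CPM after PBS (means of 2 libraries). The abundant zic1 was among the progenitor genes that were lower, at a log2 fold change of -1.91. Scaling by library totals in place of TMM moved the median of all genes by -0.48 in this comparison and by -0.44 after IL4, so folds between the fractions are relative to the scaling.

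The largest excess in GFP-positive cells was that of hes2.2, a member of the Hes repressor family. It had 3.71 and 2.48 CPM in IL4 and 2.93 and 3.82 CPM in PBS GFP-positive libraries, against 0.254 and 0.835 CPM in IL4 and 0.115 and 0.284 CPM in PBS GFP-negative libraries. Every GFP-positive library was above every GFP-negative one, on 3 and 7 counts in the PBS GFP-negative libraries, with a log2 fold change after PBS of 4.05 ± 0.57 (SE, edgeR adjusted p = 2.54e-06). Next came emx3, a homeobox gene of the pallium, with 44.9 and 40.4 CPM in IL4 and 26.4 and 23.5 CPM in PBS GFP-positive libraries, against 3.35 and 4.22 CPM in IL4 and 3.08 and 2.75 CPM in PBS GFP-negative libraries. Again the fractions did not overlap, and the log2 fold change after PBS was 3.09 ± 0.17 (SE, edgeR adjusted p = 1.58e-12).

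The proneural bHLH genes followed. For ascl1b the log2 fold change after PBS was 2.46 ± 0.29 (SE, edgeR adjusted p = 1.88e-07). Its paralogue ascl1a lies on chromosome 4 at 17428135 to 17430217 (GRCz10) and was the most abundant proneural gene of the set. Its log2 fold change between the fractions after PBS was 1.83 ± 0.09 (SE, edgeR adjusted p = 7.01e-13). The call for neurog1, a neurogenin, stood on few reads: 13 and 1 counts in the PBS GFP-negative libraries. It had a log2 fold change of 2.34 ± 0.68 (SE, edgeR adjusted p = 0.00455), which was 1.49 (edgeR adjusted p = 0.0703) without PBS GFP-negative replicate 2 and 4.93 without replicate 1.

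The lowest log2 fold changes of GFP-positive over GFP-negative cells began with factors of neuron classes. The zinc finger gene gata3, which acts in inhibitory neurons of the brainstem, had 7.76 and 6.35 CPM in IL4 and 4.62 and 4.24 CPM in PBS GFP-positive libraries, against 54.1 and 61.4 CPM in IL4 and 48.1 and 47.4 CPM in PBS GFP-negative libraries. The fractions lay far apart, with a log2 fold change after PBS of -3.43 ± 0.14 (SE, edgeR adjusted p = 1.37e-14). For the homeobox gene prox1a it was -3.29 ± 0.13 (SE, edgeR adjusted p = 1.04e-14), and for the cut homeobox gene onecut1 it was -3.06 ± 0.19 (SE, edgeR adjusted p = 1.35e-11). From the committed stage, scrt1a, a Scratch zinc finger repressor, gave -2.77 ± 0.13 (SE, edgeR adjusted p = 2.32e-13). The last of these 5 was neurod1, a bHLH differentiation factor, at -2.73 ± 0.05 (SE, edgeR adjusted p = 1.03e-20).

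Levels between genes were compared as CPM per kilobase of exon. In GFP-negative cells neurod1 and zic1, a zinc finger gene of dorsal neural tissue and cerebellar granule cells, stood above all other members. After IL4 neurod1 had 409 ± 3.72 and zic1 281 ± 3.42 CPM per kilobase (SD, n = 2), and the next, sox4a, had 48.2 ± 1.42. After PBS neurod1 had 271 ± 8.37 and zic1 186 ± 9.33 CPM per kilobase, and hes6 and sox4a came next with 31.3 ± 0.48 and 30.8 ± 0.64, which differ by less than their spread. Together neurod1 and zic1 therefore weigh heavily in any sum over members in that fraction: neurod1 alone made up 35.8% to 35.9% of the summed member CPM in IL4 and 34.0% to 35.4% in PBS GFP-negative libraries.

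The order in GFP-positive cells was flatter and differed in its leading genes. After IL4 it began with zic1 (77.5 ± 1.44 CPM per kilobase), neurod1 (70.2 ± 1.23) and sox4a (69.9 ± 5.39), of which the last 2 differ by less than their spread. Then came hes6 (64.3 ± 0.72), ascl1a (61.4 ± 0.32) and sox11a (37.9 ± 2.42). After PBS, hes6, a Hes family gene that in mouse opposes Hes1, was first with 69.9 ± 0.52 CPM per kilobase. It was followed by sox4a (50.1 ± 1.40) and zic1 (49.5 ± 1.39), which differ by less than their spread, then neurod1 (40.7 ± 1.23), ascl1a (38.5 ± 2.09) and sox11a (34.3 ± 0.13). The same 6 genes held the first 6 places after IL4 and after PBS. The places of sox11a and sox4a, and so the leading gene, are not secure. Of their exon bases, 1551 of 3298 for sox11a and 2751 of 3261 for sox4a are unshared on either strand. How reads on shared bases were counted is not given, which limits the order in both fractions.

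**Figure D2:**
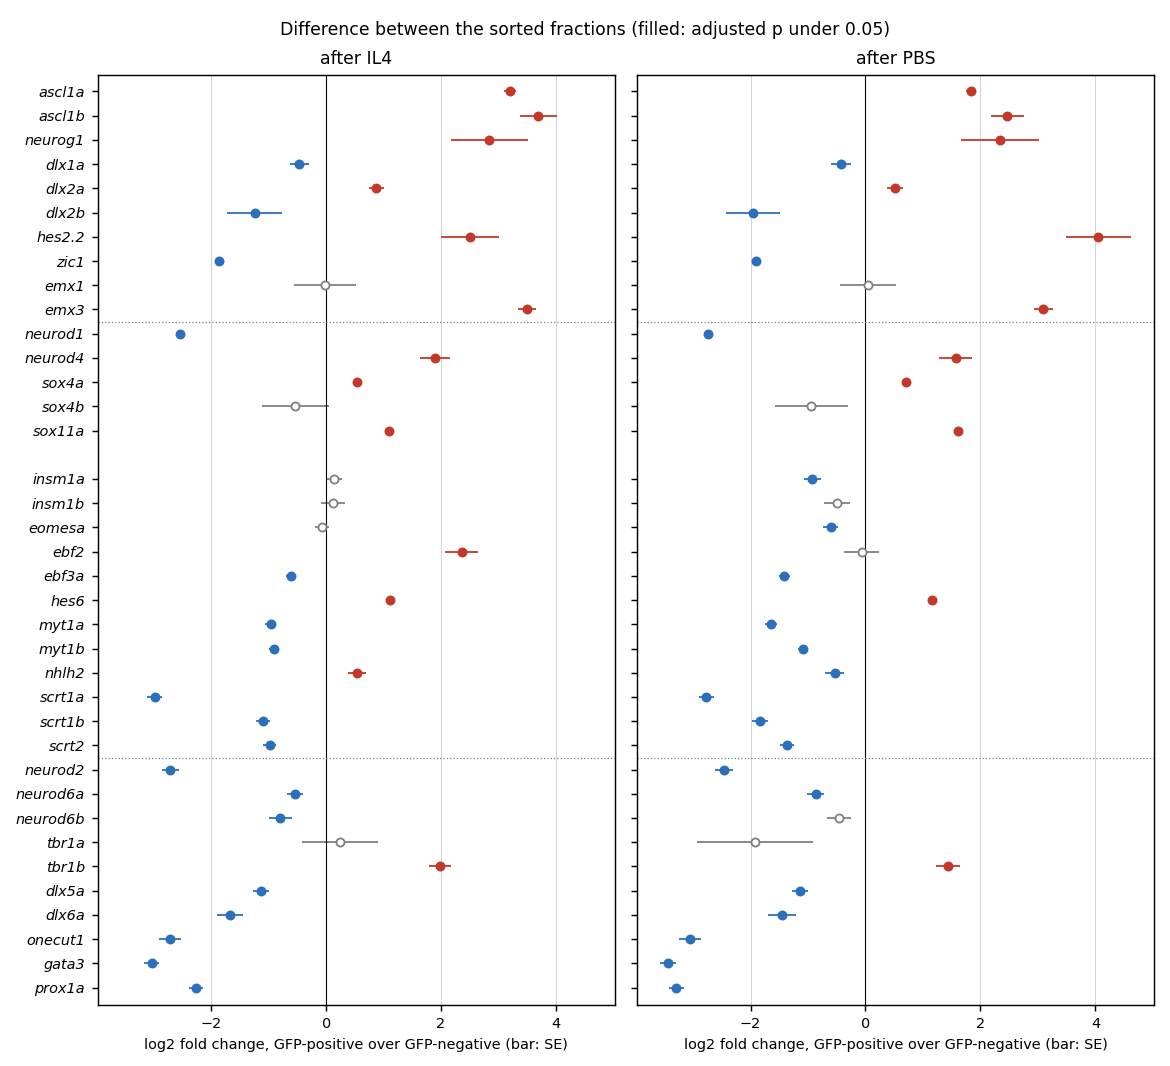
Log2 fold change of GFP-positive over GFP-negative cells for the 37 tested members, after IL4 (left panel) and after PBS (right panel). Points are edgeR estimates with their SE, filled red where higher and filled blue where lower at an adjusted p under 0.05, open grey otherwise. Progenitor genes at the top include the highest values (hes2.2 at 4.05 and emx3 at 3.09 after PBS) and differentiating genes at the bottom the lowest (gata3 at -3.43 after PBS), with ebf2 at 2.36 after IL4 and -0.07 after PBS.

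Paralogues of one family were not found in the same fraction in every case. dlx2a and dlx2b, homeobox genes of inhibitory neuron progenitors, went opposite ways: the log2 fold change of GFP-positive over GFP-negative cells after PBS was 0.51 ± 0.14 (SE, edgeR adjusted p = 0.00252) for dlx2a and -1.96 ± 0.47 (SE, edgeR adjusted p = 0.001) for dlx2b. With library totals the value of dlx2a was 0.02 (edgeR adjusted p = 0.887), so its call in GFP-positive cells rests on the scaling. Its neighbour dlx1a lies 7279 bases away on chromosome 9 and gave -0.43 ± 0.17 (SE, edgeR adjusted p = 0.0329), a call that DESeq2 and the omission of any of 7 libraries ended. Between tbr1a and tbr1b, T-box genes of excitatory neurons of the pallium, only tbr1b was abundant, with 37.3 and 29.5 CPM in IL4 and 13.3 and 21.3 CPM in PBS GFP-positive libraries, against 8.39 and 8.48 CPM in IL4 and 5.77 and 7.01 CPM in PBS GFP-negative libraries. It was the 1 differentiating gene that was higher in GFP-positive cells after PBS, with a log2 fold change of 1.43 ± 0.20 (SE, edgeR adjusted p = 2.76e-06).

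After IL4 the same comparison of fractions gave 13 members higher and 18 lower in GFP-positive cells, against 32.4% higher and 34.3% lower of all genes tested, 66.6% in all. Higher genes made up 48.6% of the calls over all genes, or 30.6% with library totals, where 11 members were higher and 19 lower. The committed genes stood at 6 higher and 7 lower, with a median log2 fold change of -0.08. The clearest case was ebf2, an Ebf helix-loop-helix factor on chromosome 5 at 66712276 to 66761462 (GRCz10), whose log2 fold change was 2.36 ± 0.29 (SE, edgeR adjusted p = 4.8e-07) after IL4 and -0.07 ± 0.30 (SE, edgeR adjusted p = 0.853) after PBS. The bHLH gene nhlh2 was higher in GFP-positive cells after IL4, at 0.54 ± 0.16 (SE, edgeR adjusted p = 0.00497), and lower after PBS, at -0.53 ± 0.17 (SE, edgeR adjusted p = 0.00765). With library totals the value of nhlh2 after IL4 was 0.10 (edgeR adjusted p = 0.574), so that call rests on the scaling. Its call after PBS was lost on omission of PBS GFP-positive replicate 2, at -0.24, and of PBS GFP-negative replicate 2, at -0.36. Of the members called after both treatments, nhlh2 was the only 1 whose direction differed between them.

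The question of the study, going by its title, is how IL4 acts on neural stem cells. In the GFP-positive cells 27 of the 37 tested members rose after IL4 and 0 fell, at an adjusted p under 0.05. Over all genes tested, 13.9% rose and 14.8% fell, 28.7% in all. Rises made up 48.3% of these calls over all genes, and 59.1% with library totals, while the members stood at 28 rises and 0 falls with library totals. The 10 members without a call were ascl1b, neurog1, dlx2b, hes2.2, emx1, sox4b, sox11a, hes6, dlx6a and onecut1. The median log2 fold change of the members was 0.79, against 0.01 over all genes tested. Because the members were chosen with earlier results of these data known, their contrast with all genes is descriptive only. By stage, 5 of 10 progenitor genes rose, with a median of 0.64 over the 10. Of 17 tested committed genes 14 rose, with a median of 0.91, and of 10 differentiating genes 8 rose, with a median of 0.79.

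Summed over the 38 members, GFP-positive cells had 1467 and 1450 CPM after IL4, against 943 and 956 CPM after PBS, a ratio of 1.54. The ratio was 1.58 for the progenitor, 1.5 for the committed and 1.77 for the differentiating genes. These are bulk libraries of sorted cells, so a change in the number of cells of a type and a change in the RNA per cell cannot be told apart. In 29 of the 37 tested members both IL4 libraries lay above both PBS libraries, in 1 (hes6) both lay below, and in 7 the groups overlapped, against 30.2% above and 29.7% below over all genes tested.

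**Figure D3:**
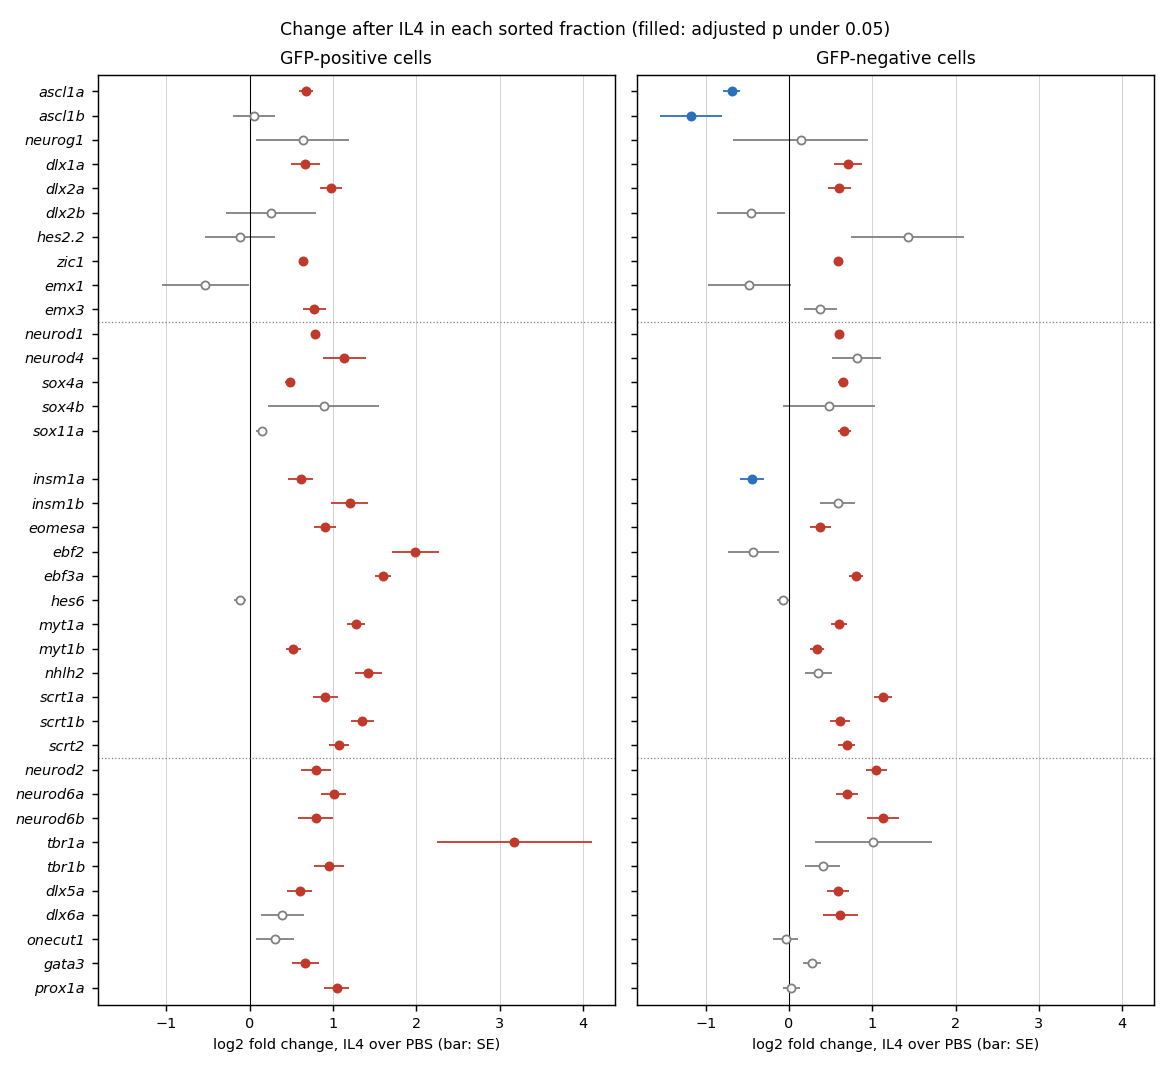
Log2 fold change of IL4 over PBS for the 37 tested members, in GFP-positive cells (left panel) and GFP-negative cells (right panel). Points are edgeR estimates with their SE, filled red where higher and filled blue where lower after IL4 at an adjusted p under 0.05, open grey otherwise. All 27 filled points of the left panel are right of 0, and in the right panel ascl1a, ascl1b and insm1a are filled left of 0.

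The steepest changes among the well-counted members were those of the Ebf genes. For ebf2 the values were 10.5 and 7.67 CPM in the IL4 GFP-positive libraries, against 2.56 and 1.99 CPM in the PBS GFP-positive libraries. Neither IL4 library came near the PBS libraries, with a log2 fold change of 1.99 ± 0.28 (SE, edgeR adjusted p = 2.29e-05). The related ebf3a had 61.3 and 63.4 CPM in IL4, against 19.1 and 22.0 CPM in PBS GFP-positive libraries. Its groups were also clearly apart, with a log2 fold change of 1.60 ± 0.09 (SE, edgeR adjusted p = 1.4e-10).

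Other committed genes rose more than 2-fold, that is by more than 1 on the log2 scale. The bHLH gene nhlh2, on chromosome 9 at 33167556 to 33170914, had 28.8 and 26.5 CPM in IL4, against 11.9 and 8.57 CPM in PBS GFP-positive libraries. Both IL4 libraries were above both PBS libraries, and the log2 fold change was 1.42 ± 0.17 (SE, edgeR adjusted p = 1.9e-06). The Scratch repressor scrt1b, of a family that acts in newborn neurons, had 22.3 and 21.9 CPM in IL4, against 7.63 and 9.72 CPM in PBS GFP-positive libraries. With no overlap of the groups, its log2 fold change was 1.35 ± 0.14 (SE, edgeR adjusted p = 4.3e-07). The related scrt2 had 31.9 and 34.1 CPM in IL4, against 13.8 and 17.7 CPM in PBS GFP-positive libraries. It too had separate groups, with a log2 fold change of 1.07 ± 0.12 (SE, edgeR adjusted p = 9.7e-07).

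The zinc finger gene myt1a, which in mouse and frog counters the repressors downstream of Notch, had 31.7 and 32.4 CPM in IL4, against 13.9 and 12.5 CPM in PBS GFP-positive libraries. The IL4 libraries were again the higher ones, with a log2 fold change of 1.27 ± 0.11 (SE, edgeR adjusted p = 2.8e-08). A smaller rise was seen for its paralogue myt1b, at 0.53 ± 0.09 (SE, edgeR adjusted p = 0.000234). The zinc finger gene insm1b, a marker of cells that leave the progenitor state, had 14.3 and 10.2 CPM in IL4, against 4.25 and 6.48 CPM in PBS GFP-positive libraries. The lowest IL4 library was above the highest PBS library, and the log2 fold change was 1.20 ± 0.22 (SE, edgeR adjusted p = 0.000397). The NeuroD gene neurod4 had 12.6 and 10.7 CPM in IL4, against 6.13 and 4.39 CPM in PBS GFP-positive libraries. Its groups did not overlap either, with a log2 fold change of 1.14 ± 0.25 (SE, edgeR adjusted p = 0.00198).

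Smaller rises were measured for neurod1 at a log2 fold change of 0.79, scrt1a at 0.91, the pallial T-box gene eomesa at 0.90, insm1a at 0.61 and sox4a at 0.48, all past the threshold. That of insm1a was lost without IL4 GFP-positive replicate 2, where it was 0.28 (edgeR adjusted p = 0.219). Of the committed genes without a call, sox4b gave 0.89 on 5 to 10 counts per GFP-positive library. hes6 had 97.1 and 95.5 CPM in IL4, against 105 and 104 CPM in PBS GFP-positive libraries. Both of its IL4 libraries were lower, but the log2 fold change of -0.12 ± 0.07 (SE, edgeR adjusted p = 0.217) did not pass. sox11a gave 0.14 ± 0.07 (SE, edgeR adjusted p = 0.131), and 0.22 with an edgeR adjusted p of 0.024 when libraries were scaled by their totals.

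Among the progenitor genes, dlx2a had the largest change that passed. It had 29.6 and 32.4 CPM in IL4, against 16.3 and 15.3 CPM in PBS GFP-positive libraries. The IL4 libraries were both above the PBS libraries, with a log2 fold change of 0.97 ± 0.13 (SE, edgeR adjusted p = 1.23e-05). The proneural gene ascl1a had 121 and 122 CPM in IL4, against 79.0 and 73.1 CPM in PBS GFP-positive libraries. Its replicates were close and its groups apart, with a log2 fold change of 0.67 ± 0.09 (SE, edgeR adjusted p = 7.15e-06). zic1 gave 0.65, emx3 0.77 and dlx1a 0.67 on the log2 scale, all past the threshold. The call of dlx1a was lost without PBS GFP-positive replicate 2 (log2 fold change 0.48, edgeR adjusted p = 0.0901) and without IL4 GFP-positive replicate 1 (0.60, edgeR adjusted p = 0.0521). The other 5 progenitor genes passed no test: ascl1b at 0.05 with a SE of 0.25, neurog1 at 0.64 with 0.56, dlx2b at 0.26 with 0.54, hes2.2 at -0.12 with 0.42 and emx1 at -0.53 with 0.52.

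Of the differentiating genes, prox1a had 12.1 and 11.5 CPM in IL4, against 4.98 and 6.54 CPM in PBS GFP-positive libraries. The IL4 libraries were both higher, with a log2 fold change of 1.04 ± 0.15 (SE, edgeR adjusted p = 2.02e-05). The NeuroD gene neurod6a, a factor of excitatory neurons of the forebrain, had 15.9 and 18.3 CPM in IL4, against 8.37 and 8.63 CPM in PBS GFP-positive libraries. The 2 groups were well apart, with a log2 fold change of 1.01 ± 0.15 (SE, edgeR adjusted p = 3.81e-05). The largest fitted value of all members was that of tbr1a, which stood on 17 and 9 counts in the IL4 libraries, against 0 and 3 counts in the PBS libraries. Its count ratio was 9.76, with a 95% counting interval of 2.99 to 50.4, and its fitted log2 fold change was 3.18 ± 0.93 (SE, edgeR adjusted p = 0.014). Without PBS GFP-positive replicate 1 the fitted value was 2.09 (edgeR adjusted p = 0.137), without replicate 2 it was 6.99, and without IL4 GFP-positive replicate 1 it was 2.61 (edgeR adjusted p = 0.122).

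The other differentiating genes that rose were tbr1b at 0.95, neurod2 at 0.80, neurod6b at 0.79, gata3 at 0.67 and dlx5a at 0.60, as log2 fold changes. The call of tbr1b held in all settings, but its value was 0.59 without PBS GFP-positive replicate 1. Omission of a library ended 3 of these calls. For neurod6b it was PBS replicate 2 (0.68) or IL4 replicate 2 (0.57), for dlx5a PBS replicate 1 (0.37) or IL4 replicate 1 (0.50), and for gata3 IL4 replicate 1 (0.46), all in GFP-positive cells. dlx6a, whose gene lies 3174 bases from dlx5a on chromosome 19, gave 0.39 with a SE of 0.26, and onecut1 gave 0.30 with 0.23, both without a call.

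**Figure D4:**
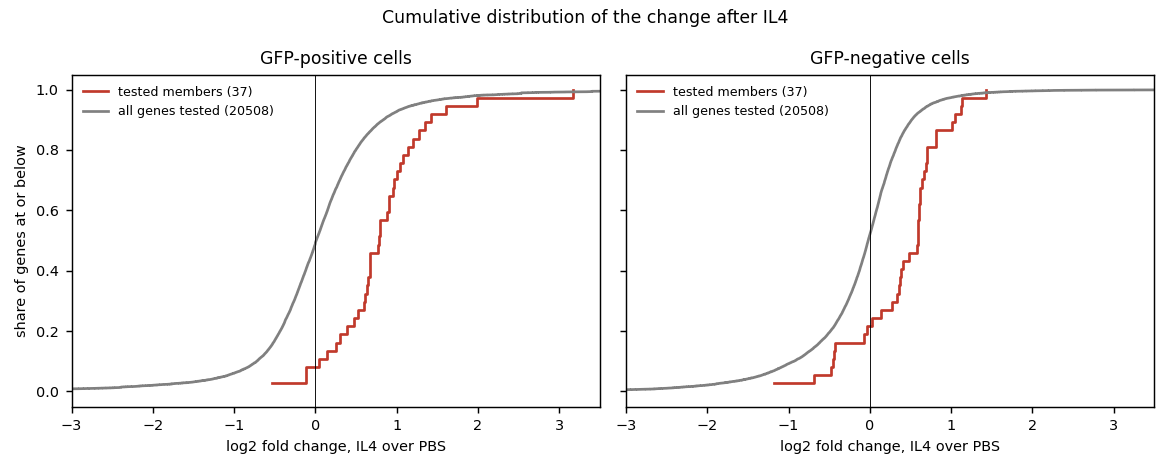
Cumulative share of genes at or below each log2 fold change of IL4 over PBS, in GFP-positive cells (left panel) and GFP-negative cells (right panel), for the 37 tested members (red steps) and all 20508 genes tested (grey line). The median of the members is 0.79 in GFP-positive and 0.59 in GFP-negative cells, and that of all genes is 0.01 and -0.02.

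In the GFP-negative cells 18 of the 37 tested members rose after IL4 and 3 fell, where 9.04% of all genes tested rose and 15.4% fell, 24.5% in all. The median log2 fold change of the members was 0.59, against -0.02 over all genes. The genes that fell were ascl1a, ascl1b and insm1a, of which 2 are progenitor genes. Summed over the members, these cells had 2776 and 2753 CPM after IL4, against 1894 and 1887 CPM after PBS, a ratio of 1.46. Both IL4 libraries lay above both PBS libraries for 26 members and below for 7, against 29.9% and 34.0% of all genes tested.

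The achaete-scute genes were lower after IL4 in this fraction. For ascl1a there were 14.7 and 11.7 CPM in IL4, against 21.7 and 20.9 CPM in PBS GFP-negative libraries. Both IL4 libraries were below both PBS libraries, with a log2 fold change of -0.69 ± 0.11 (SE, edgeR adjusted p = 5.02e-05). For ascl1b there were 0.636 and 0.879 CPM in IL4, against 1.84 and 1.58 CPM in PBS GFP-negative libraries. These are 15 and 20 counts in IL4 and 48 and 39 counts in PBS, with a log2 fold change of -1.18 ± 0.37 (SE, edgeR adjusted p = 0.0237). The call of ascl1b was lost with limma voom and on leaving out any library of the fraction (log2 fold changes of -1.42 to -0.96). insm1a had a log2 fold change of -0.45 ± 0.14 (SE, edgeR adjusted p = 0.023), a call also lost on leaving out any library of the fraction.

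The other progenitor genes with a call rose. dlx1a had 15.5 and 15.3 CPM in IL4, against 9.61 and 9.28 CPM in PBS GFP-negative libraries. Its log2 fold change was 0.71 ± 0.16 (SE, edgeR adjusted p = 0.00301), with no overlap. Its neighbour dlx2a had 16.7 and 17.1 CPM in IL4, against 11.0 and 11.2 CPM in PBS GFP-negative libraries. The replicates were within 1 CPM of each other and the log2 fold change was 0.61 ± 0.13 (SE, edgeR adjusted p = 0.00204). zic1 had 641 and 630.3 CPM in IL4, against 407 and 437 CPM in PBS GFP-negative libraries. This abundant gene rose by a log2 fold change of 0.59 ± 0.05 (SE, edgeR adjusted p = 7.6e-09).

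Among the committed genes, scrt1a had 83.9 and 85.9 CPM in IL4, against 36.1 and 41.7 CPM in PBS GFP-negative libraries. The IL4 libraries held more than 2-fold the level of the PBS libraries, with a log2 fold change of 1.13 ± 0.11 (SE, edgeR adjusted p = 8.92e-08). ebf3a had 94.1 and 97.3 CPM in IL4, against 57.2 and 52.1 CPM in PBS GFP-negative libraries. Its log2 fold change was 0.81 ± 0.08 (SE, edgeR adjusted p = 2.65e-07), with the groups apart. Of the SoxC genes, known for switching on genes of early neurons, sox11a and sox4a rose, and the low sox4b gave 0.48 with a SE of 0.55, without a call. sox11a had 59.6 and 58.1 CPM in IL4, against 35.8 and 38.4 CPM in PBS GFP-negative libraries. sox4a had 160.4 and 154 CPM in IL4, against 102 and 99.1 CPM in PBS GFP-negative libraries. Without overlap in either gene, the log2 fold changes were 0.67 ± 0.07 (SE, edgeR adjusted p = 8.79e-07) for sox11a and 0.64 ± 0.06 (SE, edgeR adjusted p = 8.61e-08) for sox4a.

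Further down, scrt2 had 66.1 and 64.3 CPM in IL4, against 41.7 and 39.1 CPM in PBS GFP-negative libraries. scrt1b had 44.6 and 49.8 CPM in IL4, against 32.4 and 29.4 CPM in PBS GFP-negative libraries. The groups were apart for both Scratch genes, with log2 fold changes of 0.69 ± 0.10 (SE, edgeR adjusted p = 3.88e-05) for scrt2 and 0.61 ± 0.12 (SE, edgeR adjusted p = 0.000557) for scrt1b. myt1a had 63.1 and 61.9 CPM in IL4, against 41.7 and 40.9 CPM in PBS GFP-negative libraries, and rose by 0.60 ± 0.09 (SE, edgeR adjusted p = 5.47e-05). The most abundant member, neurod1, had 997 and 984 CPM in IL4, against 670.2 and 642 CPM in PBS GFP-negative libraries. Its replicates differed little beside the gap between the groups, and the log2 fold change was 0.59 ± 0.04 (SE, edgeR adjusted p = 1.57e-09). Smaller calls were those of eomesa at 0.38 and myt1b at 0.34. The call of eomesa was lost without PBS GFP-negative replicate 2 (log2 fold change 0.22) and without IL4 GFP-negative replicate 1 (0.23), and that of myt1b without IL4 GFP-negative replicate 2 (0.24).

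Of the differentiating genes, neurod6b had 12.6 and 14.9 CPM in IL4, against 6.73 and 5.87 CPM in PBS GFP-negative libraries. Its log2 fold change was 1.13 ± 0.19 (SE, edgeR adjusted p = 0.000175), the groups lying far apart. neurod2, a factor of maturing excitatory neurons, had 49.9 and 45.8 CPM in IL4, against 22.4 and 23.9 CPM in PBS GFP-negative libraries. It rose by a log2 fold change of 1.05 ± 0.13 (SE, edgeR adjusted p = 2.55e-06), again without overlap. neurod6a had 25.5 and 24.6 CPM in IL4, against 16.1 and 14.8 CPM in PBS GFP-negative libraries. With 0.70 ± 0.14 (SE, edgeR adjusted p = 0.000671) on the log2 scale, the 3 NeuroD genes of this stage passed in both fractions, neurod6b in GFP-positive cells with the loss on omission given above.

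The linked genes dlx5a and dlx6a act in inhibitory neurons. dlx5a had 34.5 and 36.4 CPM in IL4, against 21.3 and 25.8 CPM in PBS GFP-negative libraries. dlx6a had 11.7 and 11.5 CPM in IL4, against 7.38 and 7.74 CPM in PBS GFP-negative libraries. Log2 fold changes were 0.59 ± 0.13 (SE, edgeR adjusted p = 0.00231) for dlx5a and 0.62 ± 0.21 (SE, edgeR adjusted p = 0.038) for dlx6a, with the groups apart for each gene. The call of dlx5a was lost without PBS GFP-negative replicate 1 (0.46, edgeR adjusted p = 0.0674). That of dlx6a was lost with DESeq2 (adjusted p = 0.068) and on leaving out any library of the fraction. Members that passed in neither fraction were neurog1, dlx2b, hes2.2, emx1, sox4b, hes6 and onecut1, and those that passed in the GFP-positive fraction alone were emx3, neurod4, insm1b, ebf2, nhlh2, tbr1a, tbr1b, gata3 and prox1a. Some of the latter passed in GFP-negative cells under an alternative. With limma voom these were insm1b (0.58, adjusted p = 0.0229) and gata3 (0.27, adjusted p = 0.0148). With library totals they were insm1b, gata3 and neurod4 (edgeR adjusted p = 0.0438, 0.0455 and 0.0486). With RLE size factors they were insm1b and neurod4 (edgeR adjusted p = 0.0456 and 0.0485). Dropping the filter also brought insm1b past the threshold (edgeR adjusted p = 0.0264). Without the filter neurod4 passed there (0.81, edgeR adjusted p = 0.0382), and so did nhlh2 on omission of either PBS GFP-positive library (0.37). Passing in 1 fraction only does not show a difference between the fractions, which was tested as follows.

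The change after IL4 differed between the fractions, as an interaction in the same edgeR fit, for 11 of the 37 tested members, where 11.5% of all genes tested had a larger log2 fold change in GFP-positive cells and 7.26% a smaller one, 18.7% in all. Larger changes made up 61.3% of these calls over all genes, and 51.2% with RLE size factors, where 8 members had a larger and 1 a smaller change. It was larger in GFP-positive cells for 10 members and smaller for 1, sox11a. Of the 11, 9 are committed genes. The clearest were ebf2, with an interaction of 2.42 ± 0.42 (SE, edgeR adjusted p = 0.000322), and ascl1a, with 1.36 ± 0.14 (SE, edgeR adjusted p = 6.15e-07). ebf2 had 1.78 and 1.76 CPM in IL4, against 2.27 and 2.51 CPM in PBS GFP-negative libraries, so its rise in GFP-positive cells had no counterpart past the threshold here, with a log2 fold change of -0.43. ascl1a rose in GFP-positive and fell in GFP-negative cells, by tests of its own in each fraction.

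A similar pattern held for insm1a, a zinc finger gene of cells leaving division. It had 20.6 and 29.3 CPM in IL4, against 16.1 and 16.6 CPM in PBS GFP-positive libraries. In the other fraction it had 23.8 and 21.7 CPM in IL4, against 31.1 and 30.9 CPM in PBS GFP-negative libraries. The directions were opposite and the interaction was 1.06 ± 0.20 (SE, edgeR adjusted p = 0.000914), or 0.70 without IL4 GFP-positive replicate 2. nhlh2 had 18.7 and 19.3 CPM in IL4, against 13.2 and 16.6 CPM in PBS GFP-negative libraries. With the larger gap in GFP-positive cells, its interaction was 1.07 ± 0.23 (SE, edgeR adjusted p = 0.0023). prox1a had 56.2 and 57.8 CPM in IL4, against 58.2 and 53.8 CPM in PBS GFP-negative libraries. These overlap, unlike those of the GFP-positive fraction, and the interaction was 1.02 ± 0.18 (SE, edgeR adjusted p = 0.000445).

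The remaining interactions were smaller. They were 0.79 for ebf3a, 0.74 for scrt1b, 0.68 for myt1a, 0.53 for eomesa, 0.19 for neurod1 and -0.52 for sox11a on the log2 scale. Those of ebf3a, myt1a and sox11a held in all settings tried. Omitting PBS GFP-positive replicate 1 (0.50), or else IL4 GFP-negative replicate 1 (0.67), ended that of scrt1b. For neurod1 and eomesa the call was lost with the RLE size factors (adjusted p = 0.191 and 0.0868 in edgeR) and with DESeq2, and on leaving out most single libraries. The neurod1 interaction was 0.084 without PBS GFP-positive replicate 1 and 0.0993 without IL4 GFP-positive replicate 2, and that of eomesa was 0.34 without IL4 GFP-positive replicate 2. ascl1b gave 1.23 ± 0.45 (SE, edgeR adjusted p = 0.063), a size like that of ascl1a that did not pass, although without the filter on low counts it did (1.22, edgeR adjusted p = 0.0431).

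**Figure D5:**
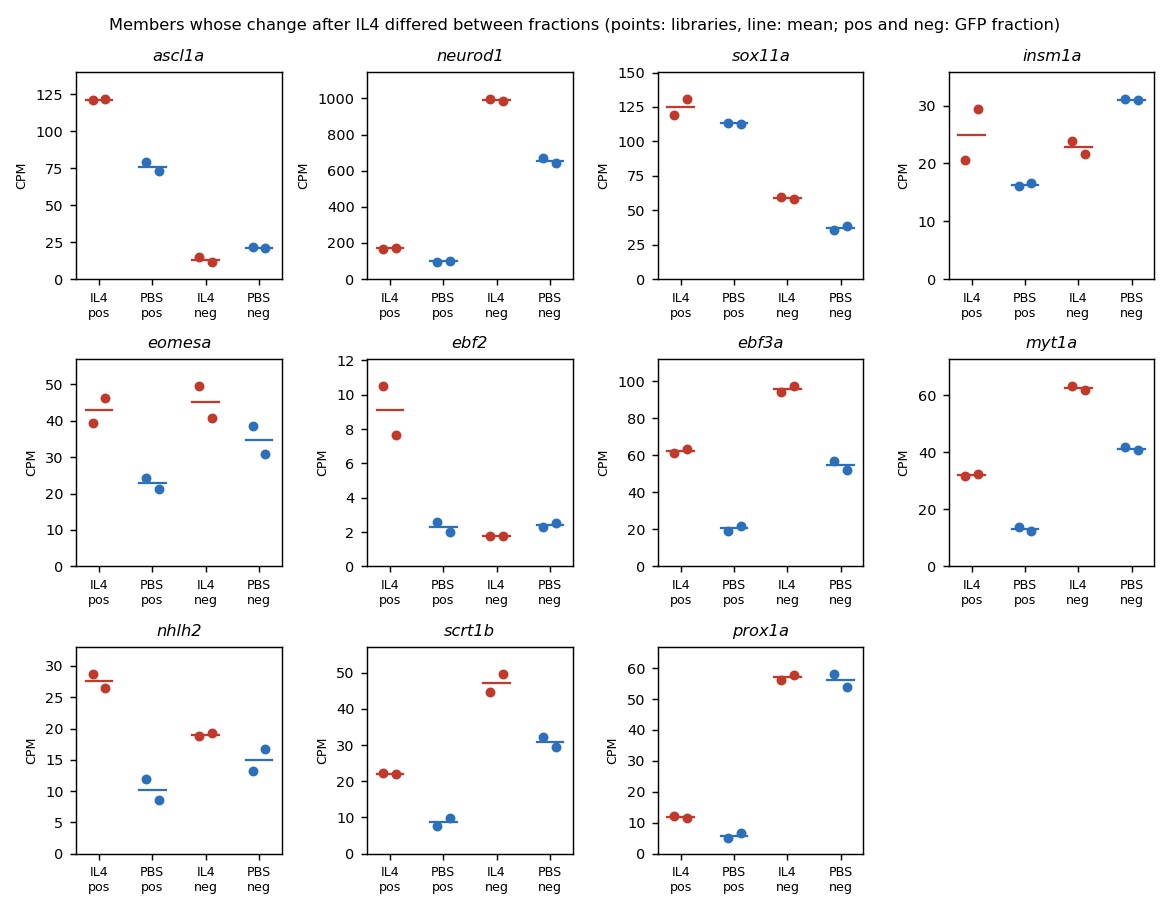
CPM in each library of the 11 members whose change after IL4 differed between the fractions, with 1 panel per gene and the vertical axis starting at 0. Points are libraries and short lines group means, in the order IL4 and PBS GFP-positive, then IL4 and PBS GFP-negative cells, red for IL4 and blue for PBS. ascl1a and insm1a are higher after IL4 in GFP-positive and lower in GFP-negative cells, and ebf2 is high in the IL4 GFP-positive libraries alone. Of the 11, sox11a alone has the larger rise on the log2 scale in GFP-negative cells. On the CPM scale drawn here, neurod1, scrt1b and myt1a also have the larger gap in GFP-negative cells.

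Other genes of the pathway were read from lists, as counts of genes that passed, beside 13.9% rising and 14.8% falling over all genes tested in GFP-positive cells and 9.04% and 15.4% in GFP-negative cells. In GFP-positive cells all 3 E proteins found, the DNA-binding partners of proneural factors, rose after IL4: tcf12 by a log2 fold change of 0.76 ± 0.07 (SE, edgeR adjusted p = 6.06e-08), tcf3a by 0.63 and tcf3b by 0.56. The rise of tcf3a was lost without IL4 GFP-positive replicate 1 (0.47, edgeR adjusted p = 0.0606). Of the 5 Id genes, which bind E proteins and oppose proneural factors, 0 rose and 3 fell. id1 had 267 and 272 CPM in IL4, against 519 and 505 CPM in PBS GFP-positive libraries. This is a log2 fold change of -0.92 ± 0.05 (SE, edgeR adjusted p = 7.71e-11), with id2b at -0.59 and id3 at -0.22, the last lost with library totals (-0.15), where the count of falls was 2. In GFP-negative cells 2 E proteins rose and 2 Id genes fell.

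Of 14 Notch receptors and Her and Hey effectors, 2 rose and 9 fell in GFP-positive cells, with a median log2 fold change of -0.36, against 0.01 over all genes tested. The receptors that rose were notch1b, at 0.90 ± 0.19 (SE, edgeR adjusted p = 0.00104), and notch1a. The effectors that fell most were heyl, at -1.06, and her8a, at -0.89, the call of heyl being lost with DESeq2 (adjusted p = 0.614). It was also lost without PBS GFP-positive replicate 1 (-1.04) and without IL4 GFP-positive replicate 2 (-0.99). her4.1, whose promoter drives the reporter used for the sort, had 988 and 964 CPM in IL4, against 1377 and 1316 CPM in PBS GFP-positive libraries, a log2 fold change of -0.46 ± 0.05 (SE, edgeR adjusted p = 1.98e-07). Of 10 Notch ligands and modulators, 4 rose and 1 fell, with a median of 0.22. With DESeq2 the rises were 1, as they were without either IL4 GFP-positive library, and without PBS GFP-positive replicate 2 they were 2. For the receptors, 1 rise was left on omitting IL4 GFP-positive replicate 1, and likewise PBS GFP-positive replicate 2. The largest were mfng, a fringe glycosyltransferase with 0.492 and 0.387 CPM in IL4, against 3.15 and 2.09 CPM in PBS GFP-positive libraries (log2 fold change -2.58), dll4 at 1.07 and dlc at 0.86, the call of dlc being lost with DESeq2 and without any of 3 GFP-positive libraries.

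Of 13 known targets of proneural factors outside the set, 8 rose and 3 fell in GFP-positive cells, with a median of 0.58. elavl3, an RNA-binding protein of early neurons, had 456 and 465 CPM in IL4, against 189 and 185 CPM in PBS GFP-positive libraries. Its log2 fold change was 1.30 ± 0.04 (SE, edgeR adjusted p = 2.11e-14), the largest rise of this list, followed by the co-repressor gene runx1t1 at 1.09, while mfng, which this list shares, fell. Of 38 tested neurogenic and neuronal transcription factors that are not members, 17 rose and 6 fell, with a median of 0.47, the falls being close to the share over all genes. Those with the largest changes were ebf1b at 1.46 ± 0.20 (SE, edgeR adjusted p = 1.7e-05), tal1 at 1.16 and bcl11aa at 1.1. In GFP-negative cells the targets stood at 7 rises and 3 falls (median 0.38), and these other factors at 13 and 2 (median 0.35). The Notch receptors and effectors had 4 rises and 5 falls there, and the ligands and modulators 0 rises and 3 falls. With limma voom the rises of her12, her2 and her15.1 were lost. Each was lost as well without IL4 GFP-negative replicate 2 (0.94, 0.63 and 0.28). The rise of the target cbfa2t2, at 0.60, was lost with DESeq2 and with the replicate block. It was also lost without PBS GFP-negative replicate 1 (0.37) and without either IL4 GFP-negative library (0.70 and 0.49). The fall of rest, an other factor, at -0.36, was lost in every alternative fit, such as RLE size factors (-0.34, edgeR adjusted p = 0.0618).

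Of the markers of neurons and of young neurons, more rose than fell in both fractions. The most abundant neuron marker of the GFP-positive cells, snap25a, was flat there, with means of 199 CPM in IL4 and 197 CPM in PBS libraries. Among these markers, elavl3, elavl4, stmn1b and tubb5 are also counted as proneural targets above. In GFP-positive cells 6 of 12 neuron markers rose and 0 fell, the sum being 681 to 687 CPM in IL4 and 548 to 571 CPM in PBS libraries, and 5 of 6 young neuron markers rose and 1 fell, the sum being 3670 to 3682 CPM in IL4 and 2597 to 2621 CPM in PBS libraries. Of 13 radial glia markers 9 fell and 0 rose, with sums of 38140 to 38310 CPM in IL4 and 49910 to 51010 CPM in PBS libraries. In the same cells 7 of 9 microglia and macrophage markers fell and 0 rose, with a median log2 fold change of -1.31, and 5 of 9 oligodendrocyte and precursor markers fell and 2 rose. In GFP-negative cells 8 of 12 neuron markers and 5 of 6 young neuron markers rose, and all 6 endothelial and mural markers fell, with a median of -1.57. Of these falls, that of tagln was lost with DESeq2 (adjusted p = 0.0769) and on leaving out any library of the fraction. That of acta2, at -0.63, was lost without PBS GFP-negative replicate 1 (-0.47). It was also lost without IL4 GFP-negative replicate 1 (-0.68) or replicate 2 (-0.58). The microglia and macrophage markers of that fraction fell in 8 of 9 cases, with sums of 2149 to 2204 CPM in IL4 and 7199 to 7452 CPM in PBS libraries, and the oligodendrocyte and precursor markers had sums of 19200 to 19350 CPM in IL4 and 14570 to 14810 CPM in PBS libraries, with 4 of 9 higher and 2 lower. These sums were mostly mbpa, mpz and plp1b, with means of 6379, 6596 and 5785 CPM in IL4 and 5607, 4437 and 4171 CPM in PBS libraries. The lower ones were olig1 (means of 13.7 CPM in IL4 and 35.6 CPM in PBS libraries) and cspg4 (1.40 and 3.07 CPM). The call of cspg4 was lost with DESeq2 (adjusted p = 0.0533). None of the markers of this paragraph was at 0 in any group. Their part in the changes of the members was not tested.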

How the data were processed

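RNA of sorted brain cells was copied from poly-A tails, amplified and sequenced, per the labels' protocols. The authors deposited whole-number read counts per gene, with no normalization. Per the submitters' processing notes, reads were counted with featureCounts on GRCz10 (danRer10). Aligner, strand setting and handling of reads with several alignments are not given in the sources used here, so paralogues with near-identical sequence and overlapping genes are uncertain. The series' design text names other injections, another time and triplicates, and the library labels were followed. Coordinates are the outer exon bounds given in the table, and of the 8 count columns 0 were left without a sample.

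Members and lists were chosen with earlier results of these data known. A name was matched exactly, then without its paralogue letter, then by RefSeq synonym, requiring the chromosome that RefSeq (GRCz12tu) gives and, where that left a choice, shared neighbours. The names also reached 3 further genes (HES6 of chromosome 15, EOMES of chromosome 16 and the HES2 next to hes2.2), which were kept out. Duplicate pairs were separated in this way and not by sequence. The list name dld was left out, because the one gene of that name in the table bears the human symbol of dihydrolipoamide dehydrogenase. Lists share genes, so their counts are not separate observations: elavl3, elavl4, stmn1b and tubb5 (neuronal markers and proneural targets), mfng (Notch ligands and proneural targets), id1, her4.1 and sox2 (radial glia and a pathway list), olig2 (oligodendrocytes and other factors) and her15.1 (Notch effectors and, as hes5, other factors).

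The counts went into edgeR 4.0.16 (R 4.3.3), with TMM scaling, filterByExpr (minimum count 10), and a quasi-likelihood model, fitted with the robust option, of 4 group means over 8 libraries with 4 residual degrees of freedom and a common dispersion of 0.00816. The filter kept 20508 genes and removed 10880. Benjamini-Hochberg adjustment of the two-sided p-values ran over all genes tested, the threshold was 0.05, and SE is the size of the log2 fold change divided by the square root of F. The 5 comparisons are IL4 against PBS in each fraction, their interaction, and GFP-positive against GFP-negative cells after each treatment. Comparisons within a fraction and between fractions share libraries. Alternatives were RLE size factors, library totals, no filter, DESeq2 1.42.0, limma voom (3.58.1), a replicate block, leaving out each library, and exact names alone. Counts simulated on 19932 genes for IL4 against PBS in GFP-positive cells recovered 37% of changes of 0.5 and 94% of changes of 1 on the log2 scale. The simulation changed 100 genes per size, drawn among genes above 1 CPM, with means pooled over the groups and a single dispersion. It called 133 genes, whereas 28.7% of genes passed in the data. Its adjusted threshold was therefore stricter, and these shares do not give the power of the real comparison. An exact permutation test of 2 against 2 libraries cannot go below p = 0.333, so none was used.

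Library totals of 19242851 to 26582271 counts set the precision: members with few counts carry a SE above 0.5 on the log2 scale. Counting intervals are 95% and, like the limit of 3 counts for a count of 0, take in counting error alone, because cDNA was amplified and its molecules were not tagged. Full values, as CPM or counts, are given for members called in GFP-positive cells with the 12 largest changes, for those called in GFP-negative cells at a size of 0.5 or more and for the 5 largest interactions. The 5 highest and 5 lowest between fractions after PBS have a log2 fold change, SE and adjusted p, but not all have every library value. From each pathway list the 3 largest changes in GFP-positive cells are named. Other named genes were chosen after their values were seen, such as her4.1, for its role in the sort. Protein and promoter sequences were not analysed here.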

Additional observations from a re-analysis of the deposited data

Results flagged for a closer look

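The change after IL4 differed between GFP-positive and GFP-negative cells for 11 members, by the interaction term of the edgeR fit at an adjusted p under 0.05, where 18.7% of all genes tested passed. Values are the log2 fold change in GFP-positive cells minus that in GFP-negative cells. Among progenitor genes there was ascl1a, at 1.36, which rose in GFP-positive and fell in GFP-negative cells. Among committed genes insm1a, at 1.06, did the same, with a call in GFP-negative cells that was lost on leaving out any library of that fraction. Its rise in GFP-positive cells, at 0.61, was 0.28 without IL4 GFP-positive replicate 2, where the call was lost. A larger rise in GFP-positive cells was measured for ebf2 at 2.42, nhlh2 at 1.07, ebf3a at 0.79, scrt1b at 0.74, myt1a at 0.68, eomesa at 0.53 and neurod1 at 0.19. Of these, neurod1 and eomesa lost the call under RLE size factors and DESeq2, and scrt1b on omitting PBS GFP-positive replicate 1, or else IL4 GFP-negative replicate 1. For sox11a the value was -0.52, the change being larger in GFP-negative cells. Of the differentiating genes prox1a passed, at 1.02. Groups of 2 libraries are too small to be searched for outlying libraries, and no count column was left unused.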

How the results depend on the processing

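Counts of called members stayed within 1.5 times of 27, 21, 11, 31 and 31 (IL4 in GFP-positive cells, IL4 in GFP-negative cells, interaction, fractions after PBS and fractions after IL4, the order used throughout) in all alternatives but the use of exact names alone, where 17 members were tested and 12, 7, 5, 14 and 15 passed. Leaving out a library gave 23 to 27, 17 to 25, 8 to 12, 28 to 31 and 29 to 31. With every gene the names reach, an alternative chosen after seeing the data, the counts were 27, 23, 12, 33 and 33. With the replicate block they were 27, 20, 10, 31 and 31. The labels state no pairing, and deviations of same-numbered libraries correlated by -0.011 to 0.0066 across genes. The block ended 2 calls, dlx6a in GFP-negative cells (adjusted p = 0.051) and the neurod1 interaction (adjusted p = 0.0543). In every alternative fit to the same members, 21, 15, 8, 27 and 27 of the called members stayed called. Values that changed sign belonged to members without a call. In GFP-positive cells ascl1b was -0.0036 with RLE size factors and -0.0054 with DESeq2, and leaving out a library gave -0.27 to 0.29 for ascl1b, -0.35 to 1.0 for dlx2b, -0.49 to 0.084 for hes2.2 and -0.14 to 0.55 for onecut1. In GFP-negative cells it gave -0.72 to 2.73 for neurog1, -0.16 to 0.087 for onecut1 and -0.031 to 0.082 for prox1a. Between fractions library totals gave -0.44 for emx1 after PBS, and -0.31 for insm1a, -0.31 for insm1b and -0.19 for tbr1a after IL4. Leaving out a library gave -0.12 to 0.32 for emx1 and -0.19 to 0.18 for ebf2 after PBS, and -0.63 to 0.42 for emx1, -0.14 to 0.38 for insm1a, -0.12 to 0.36 for insm1b, -0.21 to 0.073 for eomesa and -0.27 to 0.62 for tbr1a after IL4. Over all genes tested, calls in GFP-negative cells fell to 3234 and 3184 without IL4 GFP-negative replicate 1 and replicate 2, against 5016, and interactions to 2515 without IL4 GFP-negative replicate 1, against 3843. On omission of any GFP-positive library, calls in GFP-negative cells rose instead. The cause of these changes was not tested. Groups of 2 libraries and the few counts of neurog1, emx1, dlx2b, hes2.2, sox4b and tbr1a limit what could be detected.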
